A study of Mus musculus with 6 samples.

Results

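Transcripts of 32 genes for lysosomal hydrolases and lysosomal membrane proteins were followed in the proximal mouse incisor after deletion of Fgfr1 from Gli1+ cells. The members were a named list of genes, not picked by their values, although earlier results of these data were known when it was chosen. All 32 were found among the 19060 genes of the deposited count table. The control group was 3 samples from Fgfr1 fl/fl mice, whose genotype the labels call wild type, and the mutant group was 3 samples from Gli1-Cre;Fgfr1 fl/fl mice, whose driver is the tamoxifen-inducible Gli1CreER. All 6 samples were collected 1 week after tamoxifen, from mice labelled as 1 month old, so both groups carried the floxed alleles and the mutant group alone carried the driver. The driver acts in Gli1+ cells, which mark the mesenchymal stem cells of the incisor, while RNA was taken from the whole proximal end, so a level is an average over all cells of the sample. In such bulk samples fewer cells of a type and less RNA per cell cannot be told apart.

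The lysosome is an acidic, membrane-bound compartment that receives material from endocytosis and from autophagosomes and breaks it down with soluble hydrolases. Most hydrolases are tagged with mannose 6-phosphate in the Golgi and sorted to lysosomes by receptors, while heavily glycosylated membrane proteins line the inner face of the membrane and channels and transporters pass ions and breakdown products across it. Many of these genes respond together to the transcription factors TFEB and TFE3, which are held in the cytoplasm when mTORC1 is active and bind an E-box known as the CLEAR element. Loss of single hydrolases causes the lysosomal storage diseases, and the skeleton and teeth are affected in several of them.

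Because that element is the best known sequence shared by lysosomal genes, the promoter windows of the members were searched for the E-box CACGTG, a palindrome that reads the same on both strands, and for its flanked form TCACGTGA, every copy of which also holds the shorter one. RefSeq windows on GRCm38.p6, from 250 bases before to 50 bases after an annotated start, were found for 28 members. Asah1, Npc1, Galns and Ctsb had no entry. The E-box was present in 14 of the 28 members, against 9 of 50 other lysosomal genes with a window, 11.5% of the 11298 tested genes with a window and 8.09% of all 27025 genes in the promoter table. The flanked form was present in 6 of the 28, or 21.4%, against 6 of the 50 other lysosomal genes and 2.07% of the tested genes with a window. Those 6 were Mcoln1, Clcn7, Cln3, Ctsa, Ctsd and Gla. Lamp1 held 4 copies of the E-box, the most of any member. The stretches around the E-boxes are shown for Lamp1 and for the 3 members that were lower in mutant samples and hold an E-box. Capitals mark the E-box, and all 4 stretches are on the plus strand.
Lamp1: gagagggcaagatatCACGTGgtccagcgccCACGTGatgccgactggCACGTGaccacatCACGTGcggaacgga
Mcoln1: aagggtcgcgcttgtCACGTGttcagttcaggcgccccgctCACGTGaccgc
Glb1: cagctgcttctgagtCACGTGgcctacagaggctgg
Gaa: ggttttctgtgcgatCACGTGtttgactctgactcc

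These stretches lie at chr8:13159085-13159160 for Lamp1, chr8:3500433-3500484 for Mcoln1, chr9:114401015-114401050 for Glb1 and chr11:119267808-119267843 for Gaa. The Lamp1 copies began 61, 45, 28 and 15 bases before the RefSeq start. The Mcoln1 copies began 71 and 45 bases before it. The GENCODE model of Mcoln1 starts at position 3500457, so the copy nearer the start lies inside the first exon of that model. The copies in Glb1 and Gaa began 48 and 140 bases before the RefSeq start. A match is a description of the sequence, not a bound site.

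**Figure D1:**
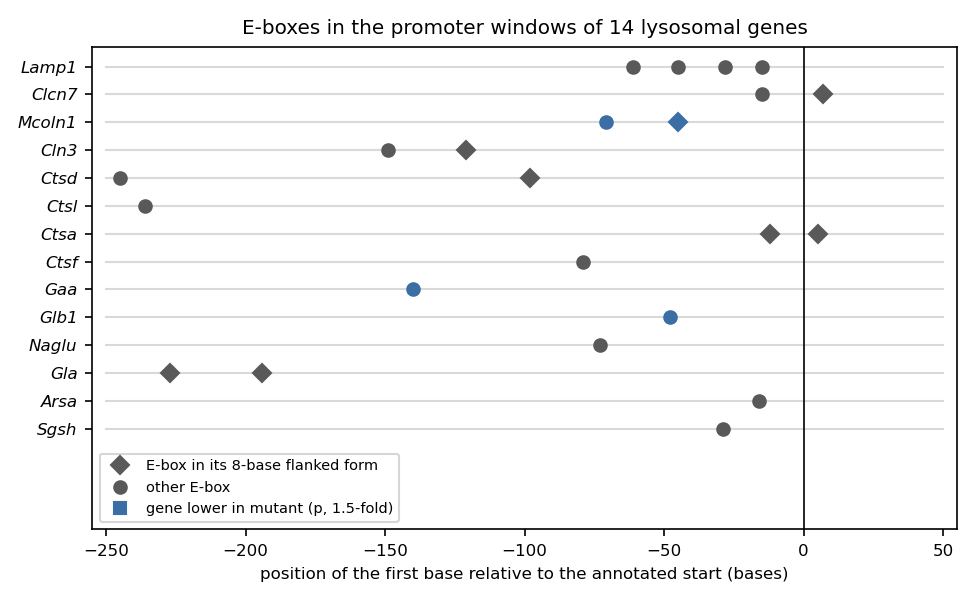
Position of each copy of the E-box in the promoter windows of the 14 members that hold it, with the x axis in bases from the annotated start. Each symbol is 1 copy, diamonds are copies in the 8-base flanked form and blue marks members that were lower in mutant samples; 14 of the 23 copies began within the 120 bases before the start, and Lamp1 had 4.

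The 3 control libraries held between 31060222 and 32712448 estimated counts and the 3 mutant libraries between 5276557 and 11819576. Every mutant library was shallower than every control library, so depth and genotype cannot be told apart in these samples. Values are given as CPM, the counts per 1000000 of a library size that was scaled by the upper quartile. A count of 0 in mutant sample 1, the shallowest library, allows up to 0.655 CPM, against at most 0.0874 CPM in a control sample, and this limit covers counting error only. Fgfr1, the targeted gene, was at 529, 924 and 434 CPM in control and at 148, 318 and 262 CPM in mutant samples, and every mutant sample was below every control sample. All 32 members passed the filter on low counts, as did 15826 genes in all. The labels do not say whether each sample came from its own mouse, so the p-values measure only the spread between these samples, which may be technical.

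A member was counted as lower or higher in mutant samples where the unadjusted p of edgeR's quasi-likelihood test was under 0.05 and the fold was over 1.5, the limits used in the study. By this rule 6 of the 32 members were lower, or 18.8%, where 8.92% of all genes tested were. They were Mcoln1, Tpp1, Glb1, Gaa, Galns and Psap. The rule was passed in the other direction by 2 members, Lamp2 and Cd63, or 6.25%, where 10.9% of all genes tested were higher. No member had a Benjamini-Hochberg adjusted p under 0.05 in edgeR, where 6.79% of all genes tested did. Every member with an unadjusted p under 0.05 in that fit also passed the fold limit and is named above. In DESeq2 6 members reached an adjusted p under 0.05, where 10.2% of all genes with an adjusted p did. In limma-voom 0 members reached it, where 8.47% of all genes tested did. The log2 fold change, given throughout as mutant minus control, was below 0 for 26 members and above 0 for 6, with a median of -0.26. Over all genes tested the median was -0.04, and 51.8% of genes were below 0.

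The groups did not overlap for 13 members. All mutant samples were below all control samples for 10 of the 32, where this held for 16.3% of the genes tested. These were Lamp1, Mcoln1, Cln3, Ctsb, Ctsd, Tpp1, Glb1, Gaa, Galns and Psap. All mutant samples were above all control samples for 3, where this held for 14.1% of the genes tested. These were Lamp2, Cd63 and Asah1. The groups overlapped for the other 19.

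**Figure D2:**
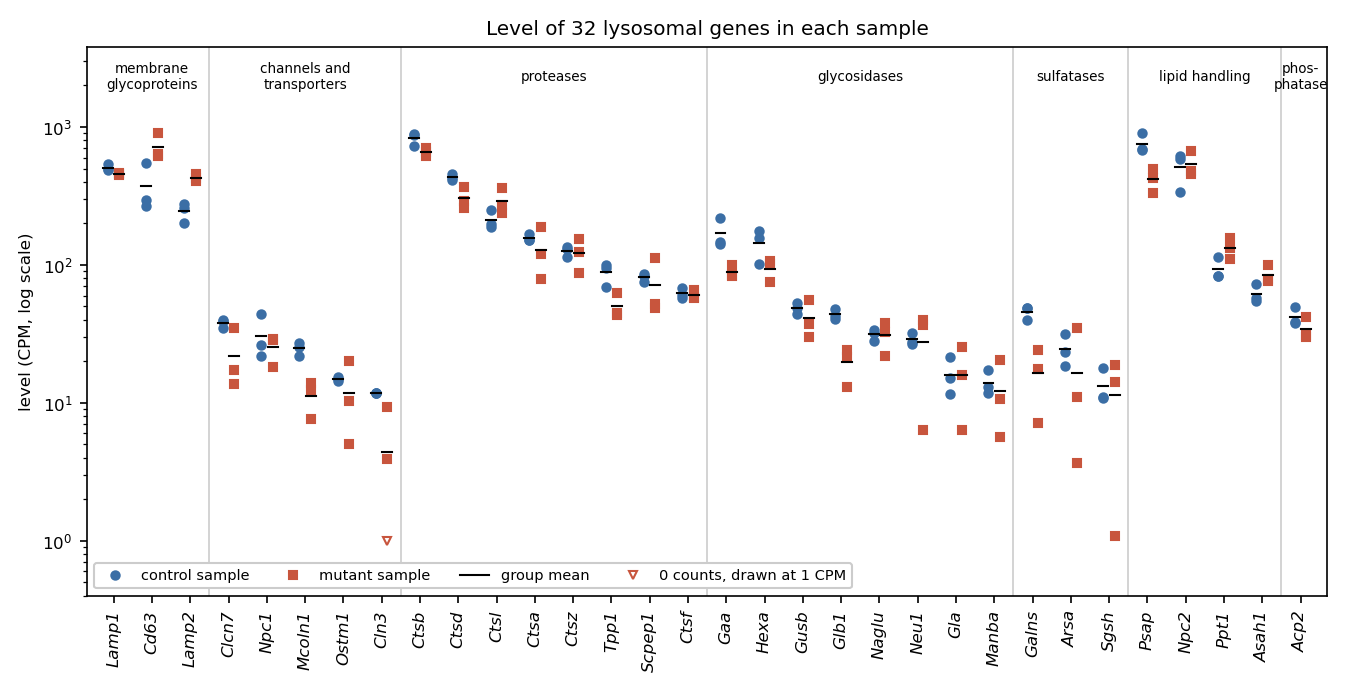
Level of each of the 32 genes in each sample, in CPM on a log scale, with circles for control samples, squares for mutant samples and a bar at each group mean (n = 3). The genes are ordered by role and by control mean; Lamp2 and Cd63 lay higher in mutant samples, and Mcoln1, Tpp1, Glb1, Gaa, Galns and Psap lay lower with no overlap.

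The members together took 0.597, 0.61 and 0.531% of all counts in control and 0.462, 0.462 and 0.424% in mutant samples. The mutant shares of the counts were all below the control shares. On the upper-quartile scale the summed levels overlapped, at 5618, 5208 and 5015 CPM in control samples and 5322, 4661 and 4858 CPM in mutant samples. Per kilobase of transcript, the control level ran from 336 CPM for Cd63 to 3.03 CPM for Sgsh. The highest control levels per kilobase after Cd63 were those of Psap at 284, Lamp1 at 226, Ctsd at 202, Ctsb at 175 and Npc2 at 156 CPM. In mutant samples Cd63 was again highest per kilobase at 649 CPM, followed by Lamp1 at 205, Npc2 at 162 and Psap at 157 CPM. The spread within a group was wider among mutant samples, with a median coefficient of variation over the members of 25.6% against 13.2% in control samples. It was 32.8% and 22.1% over the 10296 genes at or above the lowest member's level.

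The membrane glycoproteins were the one role whose summed level was higher in mutant samples, with Lamp2 and Cd63 past the limits and Lamp1 not. The summed level of the 3 genes was 1123 ± 185 CPM in control and 1603 ± 137 CPM in mutant samples (SD, n = 3). Lamp1 and Lamp2 encode the most abundant proteins of the lysosomal membrane, and the Lamp2a form of the latter is the receptor of chaperone-mediated autophagy. The counts are per gene, so the forms of Lamp2 were not separated.

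Lamp1 measured 492, 485 and 535 CPM in control and 455, 467 and 449 CPM in mutant samples. Every mutant sample was lower, by a small margin, and the log2 fold change of -0.14 (SE 0.23) did not pass (edgeR, adjusted p = 0.808). Lamp2 measured 276, 201 and 261 CPM in control and 403, 424 and 453 CPM in mutant samples. All mutant samples were higher, by a log2 fold change of 0.80 (SE 0.24; edgeR, adjusted p = 0.099). The ratio of Lamp2 to Lamp1 counts, set up after the values were seen, was 0.561, 0.414 and 0.487 in control and 0.885, 0.907 and 1.01 in mutant samples, with no overlap. The ratio carries the difference in GC content between the transcripts, 38.7% in Lamp2 and 51.6% in Lamp1, and after the correction for length and GC content described further on the log2 fold changes were 0.05 for Lamp2 and -0.14 for Lamp1.

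Cd63 encodes a tetraspanin of late endosomes, lysosomes and the exosomes they release. It measured 553, 269 and 297 CPM in control and 903, 619 and 638 CPM in mutant samples. Control sample 1 was well above the other control samples and still below every mutant sample, and the log2 fold change was 0.95 (SE 0.35; edgeR, adjusted p = 0.176). Cd63 did not pass the unadjusted limits once control sample 2, control sample 3 or mutant sample 1 was left out.

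The 5 channels and transporters all had log2 fold changes below 0, and 1 of them, Mcoln1, passed the limits. Their summed level was 120.2 ± 14.2 CPM in control and 74.7 ± 19.5 CPM in mutant samples (SD, n = 3). Mcoln1 encodes TRPML1, the channel that releases calcium from lysosomes. It measured 21.9, 25.6 and 27.2 CPM in control and 7.64, 12.4 and 13.9 CPM in mutant samples. All mutant samples were below all control samples, and the log2 fold change was -1.13 (SE 0.40; edgeR, adjusted p = 0.152), a level 2.19-fold lower. Without control sample 2 or control sample 3 it did not pass the limits.

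Clcn7 encodes the chloride-proton exchanger that helps acidify lysosomes and the resorption space of osteoclasts, and Ostm1 its partner subunit. Clcn7 measured 34.7, 39.6 and 39.8 CPM in control and 17.2, 13.7 and 34.9 CPM in mutant samples. Mutant sample 3 lay just above the lowest control sample, and the log2 fold change of -0.79 (SE 0.40) did not pass (edgeR, adjusted p = 0.321). Ostm1 was at 14.9 ± 0.523 CPM in control and 11.8 ± 7.69 CPM in mutant samples (SD, n = 3), with overlap.

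Cln3, whose loss causes juvenile Batten disease, had the second most negative log2 fold change of the members and the largest error, -1.40 (SE 1.17; edgeR, adjusted p = 0.593). It measured 11.7, 11.8 and 11.8 CPM in control and 0, 3.93 and 9.27 CPM in mutant samples. The 0 was in mutant sample 1, whose depth still allows up to 0.655 CPM, and the other mutant samples held 46 and 92 counts. Npc1, which exports cholesterol from the lysosome with Npc2, was at 30.6 ± 11.7 CPM in control and 25.2 ± 6.14 CPM in mutant samples (SD, n = 3), with overlap.

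**Figure D3:**
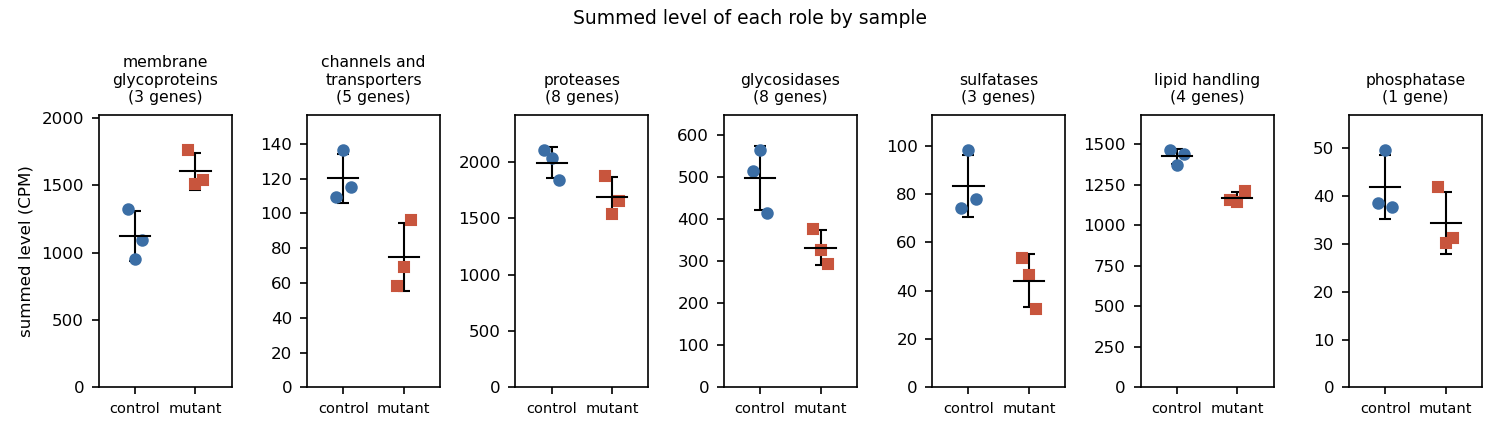
Summed level of the genes of each of the 7 roles in CPM, by sample, with circles for control and squares for mutant samples, a bar at the mean and whiskers of 1 SD (n = 3 per group; each panel has its own axis from 0). The means in control and mutant samples are 1123 and 1603 CPM for the membrane glycoproteins, 496.7 and 331 CPM for the glycosidases and 83.5 and 44.2 CPM for the sulfatases.

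Among the 8 proteases 1 passed the limits, Tpp1, and the log2 fold change was below 0 for 7. The summed level was 1990.0 ± 138 CPM in control and 1690.0 ± 171 CPM in mutant samples (SD, n = 3). Tpp1 encodes tripeptidyl peptidase 1, which removes tripeptides from the ends of proteins and is lost in late infantile neuronal ceroid lipofuscinosis. It measured 69.6, 95.3 and 100.5 CPM in control and 44.7, 43.4 and 62.8 CPM in mutant samples. The highest mutant sample was below the lowest control sample, and the log2 fold change was -0.81 (SE 0.26; edgeR, adjusted p = 0.116). Without control sample 3 it did not pass the limits.

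Ctsb and Ctsd encode cathepsins B and D, a cysteine and an aspartic protease, with the highest levels per kilobase among the 8 proteases in both groups. Ctsb measured 876, 892 and 726 CPM in control and 706, 619 and 659.8 CPM in mutant samples. Ctsd measured 456, 424 and 412 CPM in control and 368, 292 and 259.6 CPM in mutant samples. Neither overlapped between groups and neither passed the limits, with log2 fold changes of -0.33 (SE 0.25; edgeR, adjusted p = 0.545) for Ctsb and -0.49 (SE 0.24; edgeR, adjusted p = 0.316) for Ctsd.

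Ctsl, for cathepsin L, was the protease with a log2 fold change above 0, at 0.44 (SE 0.26; edgeR, adjusted p = 0.402), and its levels of 212 ± 32.7 CPM in control and 289 ± 63.1 CPM in mutant samples overlapped (SD, n = 3). The ratio of Ctsl to Ctsb counts, also set up after the values were seen, was 0.285, 0.222 and 0.261 in control and 0.334, 0.438 and 0.544 in mutant samples. Its groups did not overlap. The transcripts have a GC content of 44.3% in Ctsl and 49.2% in Ctsb. After the length and GC correction the log2 fold changes were 0.29 for Ctsl and -0.07 for Ctsb. Ctsa, for the protective protein that stabilizes beta-galactosidase and neuraminidase, was at 157 ± 9.16 CPM in control and 129 ± 55.4 CPM in mutant samples, with mutant sample 1 above and the others below every control sample. Scpep1, a serine carboxypeptidase, showed the same order of samples around 81.7 ± 5.72 CPM in control and 71.2 ± 36.1 CPM in mutant samples. The cysteine cathepsins Ctsf and Ctsz had log2 fold changes of -0.03 and -0.05, with overlap.

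All 8 glycosidases had log2 fold changes below 0, and Glb1 and Gaa passed the limits. The summed level was 496.7 ± 75.3 CPM in control and 331 ± 41.3 CPM in mutant samples (SD, n = 3). Glb1 encodes the acid beta-galactosidase that trims gangliosides and keratan sulfate and gives the stain used for senescent cells. It measured 42.7, 48.0 and 40.9 CPM in control and 13.1, 24.3 and 21.6 CPM in mutant samples. Each mutant sample was well below the lowest control sample, and the log2 fold change was -1.15 (SE 0.32; edgeR, adjusted p = 0.0789), a level 2.22-fold lower. The call held in all 18 alternative analyses, among them the 6 in which 1 sample was left out.

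Gaa encodes acid alpha-glucosidase, which digests lysosomal glycogen and is lost in Pompe disease. It measured 143, 219.7 and 145.5 CPM in control and 100.6, 83.2 and 84.9 CPM in mutant samples. Control sample 2 stood above the other control samples, all mutant samples were lower, and the log2 fold change was -0.92 (SE 0.25; edgeR, adjusted p = 0.0756), the smallest adjusted p of any member. After the length and GC correction the value was -0.23 and did not pass the limits. Hexa, for the alpha subunit of hexosaminidase that is lost in Tay-Sachs disease, measured 176, 157 and 101.1 CPM in control and 100.8, 106 and 75.7 CPM in mutant samples. The lowest control sample lay among the mutant samples, and the log2 fold change of -0.62 (SE 0.28) did not pass (edgeR, adjusted p = 0.262).

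The other 5 glycosidases overlapped between groups, with log2 fold changes from -0.24 for Gusb to -0.02 for Gla. Gla, lost in Fabry disease, was at 16.1 ± 5.04 CPM in control and 15.8 ± 9.49 CPM in mutant samples (SD, n = 3). Gusb, the beta-glucuronidase, was at 48.5 ± 4.13 CPM in control and 41.1 ± 13.3 CPM in mutant samples. Naglu, which degrades heparan sulfate, was at 31.3 ± 2.78 CPM in control and 30.9 ± 8.29 CPM in mutant samples. Neu1, the sialidase of the Ctsa complex, was at 39.9, 37.0 and 6.35 CPM in the mutant samples, so mutant sample 3 alone was below the control samples. Manba, a beta-mannosidase, had a log2 fold change of -0.20 (SE 0.57).

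Of the 3 sulfatases Galns passed the limits, and it had the most negative log2 fold change of all members. The summed level of the sulfatases was 83.5 ± 12.8 CPM in control and 44.2 ± 10.8 CPM in mutant samples (SD, n = 3). Galns removes sulfate from keratan and chondroitin sulfate, and its loss causes Morquio syndrome, with defects of bone and enamel. It measured 40.2, 48.6 and 48.6 CPM in control and 17.7, 24.2 and 7.16 CPM in mutant samples. The groups stood apart, with every mutant sample lower, and the log2 fold change was -1.49 (SE 0.44; edgeR, adjusted p = 0.0958), a level 2.80-fold lower. This call, like that of Glb1, held in all 18 alternative analyses.

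Arsa, the arylsulfatase lost in metachromatic leukodystrophy, measured 23.2, 31.7 and 18.6 CPM in control and 34.9, 3.67 and 11.1 CPM in mutant samples. Mutant sample 1 was above every control sample and the other mutant samples were below them, and the log2 fold change of -0.58 (SE 0.72) did not pass (edgeR, adjusted p = 0.738). It was -1.75 without mutant sample 1, where it passed the limits, and -0.11 without mutant sample 2. Sgsh, which acts on heparan sulfate, was at 11.0, 17.8 and 10.8 CPM in control and 1.09, 18.7 and 14.2 CPM in mutant samples, where the first mutant value rests on 5 counts.

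The 4 genes of lipid handling divided, with Psap lower and the other 3 at log2 fold changes above 0 that did not pass. Their summed level was 1425 ± 46.1 CPM in control and 1169 ± 35.2 CPM in mutant samples (SD, n = 3). Psap encodes prosaposin, the precursor of the saposins, which present sphingolipids to their hydrolases. It measured 688, 897 and 682 CPM in control and 492, 424 and 333 CPM in mutant samples. All mutant samples were lower, and the log2 fold change was -0.86 (SE 0.28; edgeR, adjusted p = 0.118). Without mutant sample 3 it did not pass the limits.

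Npc2, the soluble cholesterol carrier of the lysosome, measured 585, 335 and 620.4 CPM in control and 456, 482 and 666 CPM in mutant samples. The groups overlapped, and the log2 fold change was 0.06 (SE 0.32; edgeR, adjusted p = 0.953). The ratio of Npc2 to Psap counts was 0.85, 0.374 and 0.91 in control and 0.926, 1.14 and 2 in mutant samples, and was also set up after the values were seen. Asah1, the acid ceramidase, was at 62.0 ± 9.76 CPM in control and 85.0 ± 12.2 CPM in mutant samples (SD, n = 3), with no overlap and a log2 fold change of 0.46 (SE 0.23; edgeR, adjusted p = 0.324). Ppt1, which removes palmitate from proteins, was at 93.8 ± 18.1 CPM in control and 133 ± 22.9 CPM in mutant samples, with overlap.

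Acp2, the lysosomal acid phosphatase, measured 38.5, 49.6 and 37.7 CPM in control and 41.9, 30.1 and 31.1 CPM in mutant samples. Mutant sample 1 lay among the control samples, and the log2 fold change of -0.29 (SE 0.28) did not pass (edgeR, adjusted p = 0.649).

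**Figure D4:**
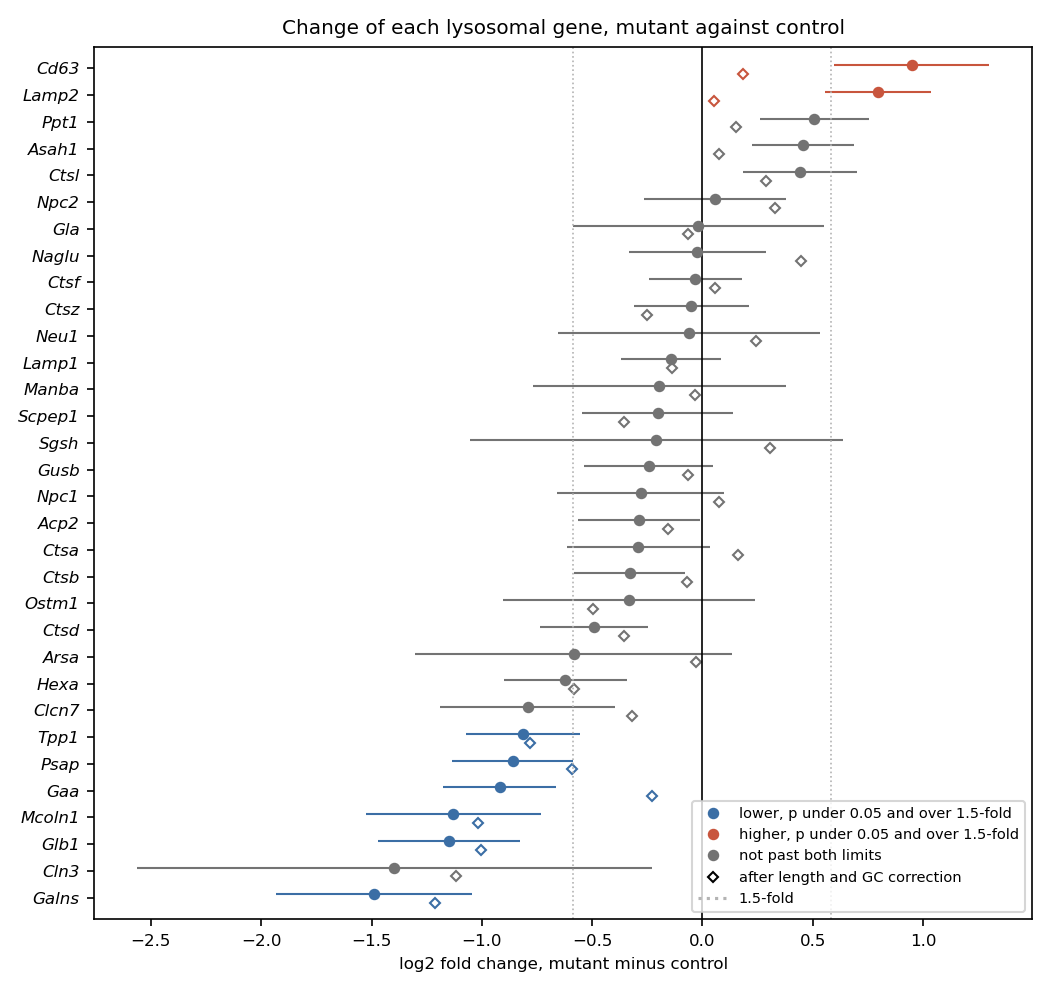
Log2 fold change of each of the 32 genes, mutant minus control, with filled circles for the edgeR estimate and whiskers of 1 SE, and open diamonds for the estimate after correction for transcript length and GC content. Of the genes, 26 lie below 0; after the correction Lamp2 and Cd63 lie at 0.05 and 0.18 and Gaa at -0.23, while Galns, Mcoln1, Glb1, Tpp1 and Psap stay past the 1.5-fold lines.

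The difference between groups moved with the composition of the transcripts. Genotype and depth divided the samples alike, and the cause of this trend was not tested. Across the 13796 protein-coding genes tested, Spearman's correlation of the log2 fold change with transcript GC content was -0.306 and with transcript length -0.252. Across the 32 members it was -0.367 with GC content and -0.08 with length. These correlations run over genes of the same 6 libraries, which are not independent, and describe these libraries only. The members' median GC content was 51.9%, near the 50.6% of all protein-coding genes tested. The transcripts of Lamp2 and Cd63 have a GC content of 38.7% and 49.6%. Those of the lower members have 46.8% in Tpp1, 53.3% in Glb1, 54.7% in Psap, 55.6% in Galns, 56.0% in Mcoln1 and 59.5% in Gaa.

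After a correction for the trend with length and GC content in each sample, 5 members were lower, where 8.67% of the 15716 genes in that fit were, and 0 were higher, where 5.63% were. The 5 were Mcoln1, Tpp1, Glb1, Galns and Psap. Their corrected log2 fold changes ran from -1.21 in Galns to -0.59 in Psap, with -1.02 in Mcoln1 and -0.78 in Tpp1. The corrected values were -0.23 for Gaa, 0.05 for Lamp2 and 0.18 for Cd63, and none of the 3 passed the limits. The median over the members was -0.07 after the correction, where that of all genes in the fit was -0.12, and 20 of the 32 members were below 0.

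**Figure D5:**
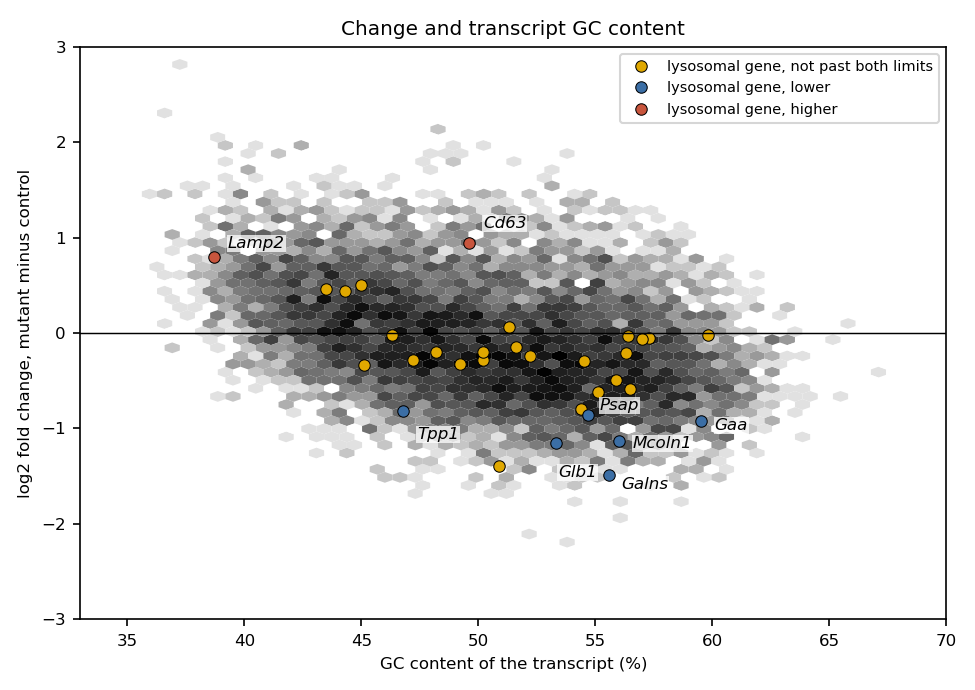
Log2 fold change, mutant minus control, against the GC content of the transcript in percent, with the 32 lysosomal genes as coloured points over 9815 protein-coding genes at or above the lowest lysosomal level (grey, darker where more genes fall, on a log scale). Changes beyond 3 in either direction, in 43 genes, are not drawn; the cloud tilts downward with GC content, Lamp2 sits at its low-GC end and Gaa at its high-GC end.

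The calls were set beside the E-box. Of the 14 members with an E-box, 3 were lower and 0 were higher, with a median log2 fold change of -0.39 and a range from -1.40 in Cln3 to 0.44 in Ctsl. Of the 14 members with a window and no E-box, 2 were lower and 2 were higher, with a median of -0.20. Lamp1, with 4 copies, did not pass the limits, and Psap and Tpp1, with no copy in this window, were lower. These values were taken before the length and GC correction, and the medians were not taken again after it. After the correction Gaa, with an E-box, and Lamp2 and Cd63, with none, lost their calls. Mcoln1 and Glb1, with an E-box, and Tpp1 and Psap, with none, kept theirs. No test was made between the members with and without an E-box.

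A list of 64 other lysosomal genes was set beside the members, of which 62 were tested. Of these 11 were lower, or 17.7%, where 8.92% of all genes tested were. A further 5 were higher, or 8.06%, where 10.9% of all genes tested were. The median log2 fold change of the list was -0.29. Arsb, the sulfatase of dermatan and chondroitin sulfate, measured 220.1, 297 and 458 CPM in control and 72.2, 112 and 123 CPM in mutant samples, a log2 fold change of -1.67 (SE 0.35; edgeR, adjusted p = 0.0464). Sort1, for the sorting receptor sortilin, measured 104, 181 and 135 CPM in control and 51.7, 52.3 and 74.9 CPM in mutant samples, a log2 fold change of -1.23 (SE 0.29; edgeR, adjusted p = 0.0464). Both were lower in every mutant sample and past the adjusted threshold, which no member reached. Of the 62 genes 3 were past it, where 6.79% of all genes tested were. Smpd1, the acid sphingomyelinase, and Man2b2, an alpha-mannosidase, were also lower, with log2 fold changes of -0.96 and -1.02 (edgeR, adjusted p = 0.0521 and 0.0909). After the length and GC correction Smpd1 was at -0.72 and kept the call, while Man2b2 was at -0.43 and did not.

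The higher genes of that list were led by Rnaset2a, a lysosomal ribonuclease, at a log2 fold change of 2.42 (edgeR, adjusted p = 0.00659). Rnaset2a has a nearly identical copy, Rnaset2b, so the division of reads between them is uncertain. Ctso, Vps35 and Ctsk followed with log2 fold changes of 1.18, 0.73 and 1.02 (edgeR, adjusted p = 0.159, 0.2 and 0.228). Vps35 is a subunit of the retromer, which returns sorting receptors from endosomes, and Ctsk is the collagen-degrading cathepsin of osteoclasts. After the length and GC correction 11 of the list were lower, of which 7 were among the 11 before it, and 1 was higher, Rnaset2a. Over all genes in that fit 8.67% were lower and 5.63% higher.

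Lysosomes are abundant in macrophages and osteoclasts, so marker lists of these and other cell types were measured beside the members. The summed level of 12 macrophage markers ran from 185 to 519 CPM in control and from 373 to 584 CPM in mutant samples, and 0 of the 12 passed the limits. For the osteoclast list, of which 7 of 9 genes were tested, the sums ran from 139 to 261 CPM and from 150 to 594 CPM, and 1 gene, Ctsk, was higher. The sums of 7 ameloblast markers were lower in mutant samples, at 34720 to 74830 CPM against 85940 to 120400 CPM, although 2 of the 7, Amtn and Odam, were higher. That was before the length and GC correction. After it Amtn and Odam, at -0.18 and 0.37, lost their calls, while Amelx, Ambn, Enam and Mmp20 were lower. These ran from -2.20 for Amelx to -1.11 for Mmp20. The sums were also lower in mutant samples without overlap for the dental epithelium list, at 1547 to 1641 CPM against 1656 to 3401 CPM, and for the endothelium list, at 131 to 156 CPM against 168 to 259 CPM. Of these lists 0 of 7 and 0 of 6 genes passed the limits. Krt5 and Krt14 had the highest levels of the epithelium list. Epcam and Sox2, and Emcn and Cldn5 in the endothelium list, had log2 fold changes above 0, and the other genes of both lists were below 0. The sums were higher in mutant samples for the erythroid list, at 926 to 2559 CPM against 380 to 823 CPM, with Hbb-bs and Hba-a2 higher and Hba-a1 lower. Hba-a1 and Hba-a2 are nearly identical copies, so the division of reads between them is uncertain. After the length and GC correction Ctsk, Hbb-bs and Hba-a2 lost their calls and Hba-a1 kept its call. Mmp9 of the osteoclast list was then higher and Emcn of the endothelium list lower.

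The sums overlapped between groups for dental mesenchyme, odontoblast, neutrophil, Schwann cell and skeletal muscle markers, and the muscle sum varied most between samples, from 4.75 to 3654 CPM. None of the markers in the table was at 0 in every mutant sample. The part of these cell types in the members' values was not tested. The dental mesenchyme list, whose genes mark the labelled tissue, was at 667 to 836 CPM in control and 720 to 865 CPM in mutant samples.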

How the data were processed

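RNA from 3 control and 3 mutant samples of proximal incisor was sequenced as single reads of 75 bases, which the authors trimmed and aligned to mm10 in Partek Flow. TopHat2 2.0.8 and mm10 are named in the submitters' processing notes. The counting model and annotation are not given in the sources used here. The deposited table holds estimated counts per gene that the authors did not normalize, and 41.1% of its values are fractional. Every gene in it reached a count of at least 10 in some sample. A second deposited table holds the authors' own comparison (p-values, ratios, fold changes and group means) and was not used. Samples were grouped by their labels.

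Counts were rounded to whole numbers and fitted over the whole table in edgeR 4.0.16 (R 4.3.3), with upper-quartile scaling as in the study, the default filter (minimum count 10, total 15), a model of genotype alone and the quasi-likelihood test, two-sided, whose p-values were adjusted over all genes tested by the method of Benjamini and Hochberg. Standard errors were approximated by the estimate divided by the root of F. DESeq2 1.42.0, limma 3.58.1, other scalings and filters, an offset for GC content and transcript length, a replicate term and the omission of each sample were tried as alternatives. The procedure was tested on simulated data. GENCODE M21 held 18637 of the 19060 symbols as written and 191 under a synonym, and 232 were unmatched. The gene models that were counted may differ from these.

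Values were given in every sample for members past the limits, for the 2 members of each role with the highest control level per kilobase, and for Lamp1 and Lamp2, and by mean and SD, or by fold change alone, for the rest. Some of the rest were also given by sample after their values were seen. Up to 4 other lysosomal genes in each direction were named, by smallest p. The members, gene lists and tests were chosen with earlier results of these data known.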

Additional observations from a re-analysis of the deposited data

How the results depend on the processing

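Members lower, members higher, other lysosomal genes lower and other lysosomal genes higher were 6, 2, 11 and 5, and moved by over 1.5 times under these settings. With total counts alone, which shifted the median of all genes to -0.30, they were 10, 0, 18 and 1, so that 10 of 10 calls among members were lower in place of 6 of 8, while over all genes the shares moved from 8.92% to 14.8% lower and from 10.9% to 7.92% higher. The members' median was then -0.54, and 2 members, Tpp1 and Gaa, had an adjusted p under 0.05. The share of all genes past that adjusted threshold was not taken with total counts alone. TMM scaling left 2 other lysosomal genes higher, where 9.59% of all genes were. After the length and GC correction 0 members and 1 other gene were higher, where 5.63% of all genes were. The members' median was then -0.068. The test against a 1.5-fold change left 3 members lower (Glb1, Gaa, Galns) and 0 higher, and 6 and 1 of the other genes. Over all genes it left 5.49% lower and 8.1% higher. DESeq2 gave 6 members an adjusted p under 0.05, where 10.2% of all genes with an adjusted p reached it. The cause of these moves was not tested.

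When each sample was left out in turn, the members lower ran from 5 to 10, those higher from 1 to 3, those with an adjusted p under 0.05 from 0 to 0, and the members' median from -0.41 to -0.19. The other lysosomal genes ran from 7 to 14 lower and from 1 to 6 higher. Over all genes the shares ran from 4.97% to 16.5% lower and from 7.88% to 12.2% higher. The 10 came without mutant sample 1, the shallowest library, which added Ctsa, Ctsd, Scpep1 and Arsa. In that fit 14.5% of all genes were lower. Npc2 changed sign, to -0.036 with TMM and -0.20 with total counts, and ran from -0.17 to 0.22 when samples were left out, below 0 without control sample 2 (-0.17) or mutant sample 3 (-0.14). Of the called members, Glb1 and Galns passed in all 18 settings, Tpp1, Gaa and Psap failed in 2 each, Mcoln1 and Lamp2 in 4 each and Cd63 in 7.

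Whether the replicate numbers pair the samples could not be settled. The paper's methods speak of 3 pairs of samples, and correlations over so few samples cannot exclude pairing. The deviations of same-numbered samples correlated at 0.0472, 0.00937 and 0.0548, although each sample correlated best with its own number. With the numbers as a block, 8 members were lower (Clcn7 and Hexa were added) and 2 higher. Over all genes 7.84% were then lower and 9.5% higher. With the block and the length and GC correction together 0 members and 1 other gene were higher, where 3.98% of all genes were. A count of 0 in mutant sample 1, the shallowest library, allows up to 0.655 CPM, so a 0 there does not show that the transcript was absent.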

Other observations

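Further genes of the list of other lysosomal genes were named after their values were seen. Lower in mutant samples were Grn, for progranulin, at a log2 fold change of -0.82, and Pld3, a lysosomal exonuclease, at -0.62. Of the ion channels of the membrane, Tpcn1 was at -1.22 and Tmem175 at -0.99. Other channels of the list did not pass the limits, with Tpcn2 at 0.03, Mcoln2 at 1.58 and Mcoln3 at -2.07. Mcoln2 and Mcoln3 were at 0 in mutant samples 1 and 3. The groups did not overlap for Grn, Pld3 and Tmem175, and overlapped for Tpcn1. In edgeR the adjusted p of these 4 genes ran from 0.116 for Grn to 0.177 for Pld3. After the length and GC correction Grn, at -0.60, kept the call. Pld3 at -0.30, Tpcn1 at -0.62 and Tmem175 at -0.74 did not, the last with an unadjusted edgeR p of 0.0526.

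Ctss, for a cathepsin of antigen-presenting cells, was higher at a log2 fold change of 0.91 (edgeR, adjusted p = 0.24), with every mutant sample above every control sample. Its value was 0.10 after the length and GC correction.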
